A study of Homo sapiens with 4 samples.

Results

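The apolipoproteins measured here are the protein parts of lipoprotein particles, with one plasma glycoprotein that carries the same family name. The genes are APOA1, APOA2, APOA4, APOA5, APOB, APOC1, APOC2, APOC3, APOE and APOH, and a gene was taken in with every non-control probe that the array design assigns to its name. This gave 11 probes for 10 genes, out of 42405 probes for 34809 gene names on the array. APOA1 had 2 probes and each of the other genes had 1. Total RNA came from Hep3B, an established human hepatocellular carcinoma cell line that lacks the tumour suppressor genes RB and P53 and carries hepatitis B virus. The cells were transfected by Lipofectamine with a pLKO.1 plasmid and kept in puromycin (1 µg/ml) for 2 days, so that the RNA came from selected cells, with no cloning step described. The plasmid expressed either a mock hairpin (shR-MOCK, 1 array) or a short hairpin RNA against UNC50 mRNA (shR-467, shR-554 or shR-749, 1 array each), the number being the position targeted in the transcript. The question was which transcripts differed once UNC50, a membrane protein with a part in Golgi transport, had been knocked down.

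Apolipoproteins are made mainly by hepatocytes and enterocytes. APOB is the large structural protein on which very low density lipoprotein is built in the endoplasmic reticulum, APOA1 is the main protein of high density lipoprotein, and the smaller A, C and E proteins move between particles, where they activate or inhibit lipases and bind receptors. Several of the genes lie side by side in the genome: RefSeq lists the order ZPR1, APOA5, APOA4, APOC3, APOA1, SIK3 on chromosome 11, which puts 4 of the 10 genes next to each other, and the order TOMM40, APOE, APOC1, APOC4, APOC2, CLPTM1 on chromosome 19, which holds another 3.

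The 3 hairpins are different reagents against the same transcript. Here they served as 3 replicates of the knockdown, and their SD also holds whatever is peculiar to a single hairpin, and nothing in the labels says that the 4 RNAs came from independent cultures. A p-value therefore measures only the spread between these samples, which may be technical. With 1 mock array every difference shares the same control value, and its own error is not known. All arrays were on 1 slide and in 1 scan, and between 67.6% and 73.6% of their spots were well above background. The targeted gene itself followed the labels: its signal of 5010 on the mock array was 1050 on that of shR-467, 853 on that of shR-554 and 947 on that of shR-749, which after scaling left 24.0%, 13.7% and 18.7% of the mock level. UNC50 had the smallest p of all 24918 genes tested in limma, although its adjusted p was 0.624.

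The probes of APOA1, APOA4, APOC3 and APOA2 are shown because they state which stretch of each transcript was read. Each is 60 bases of the coding strand, written 5′ to 3′. The longest run of bases that any of the 5 had in common with the probe of another member was 9. Probes were compared with probes and not with whole transcripts, so a match elsewhere in another apolipoprotein gene was not examined.
APOA1, probe A_23_P203191: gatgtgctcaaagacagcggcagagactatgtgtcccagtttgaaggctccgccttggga
APOA1, probe A_33_P3298539: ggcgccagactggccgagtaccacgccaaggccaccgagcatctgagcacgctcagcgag
APOA4, probe A_23_P87036: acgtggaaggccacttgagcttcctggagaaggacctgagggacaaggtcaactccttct
APOC3, probe A_23_P203183: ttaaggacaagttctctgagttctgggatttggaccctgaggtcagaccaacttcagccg
APOA2, probe A_24_P302249: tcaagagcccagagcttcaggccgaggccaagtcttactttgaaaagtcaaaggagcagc
In the array annotation on hg19, the APOA1 probes lie on the minus strand of chromosome 11 at 116707728 to 116707787 (A_23_P203191, bases 167 to 226 of the transcript) and at 116706641 to 116706700 (A_33_P3298539, bases 665 to 724). The APOA4 probe lies on the minus strand at 116691711 to 116691770 and the APOC3 probe on the plus strand at 116703530 to 116703589. The annotation gives no position for the APOA2 probe. No exon annotation of this build was used here.

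APOA4 and APOA1 stood higher with every hairpin than with the mock hairpin, by 2.91-fold and 2.01-fold on average. APOA5 and APOH were 1.5-fold higher on average but not with every hairpin. The other 6 genes, among them APOB and APOE, differed from the mock array by less than 1.5-fold on average, and no apolipoprotein gene was lower by that amount. All 11 probes were well above background on every array. In RNA from a culture, fewer cells that make a transcript and less of it per cell cannot be told apart.

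**Figure D1:**
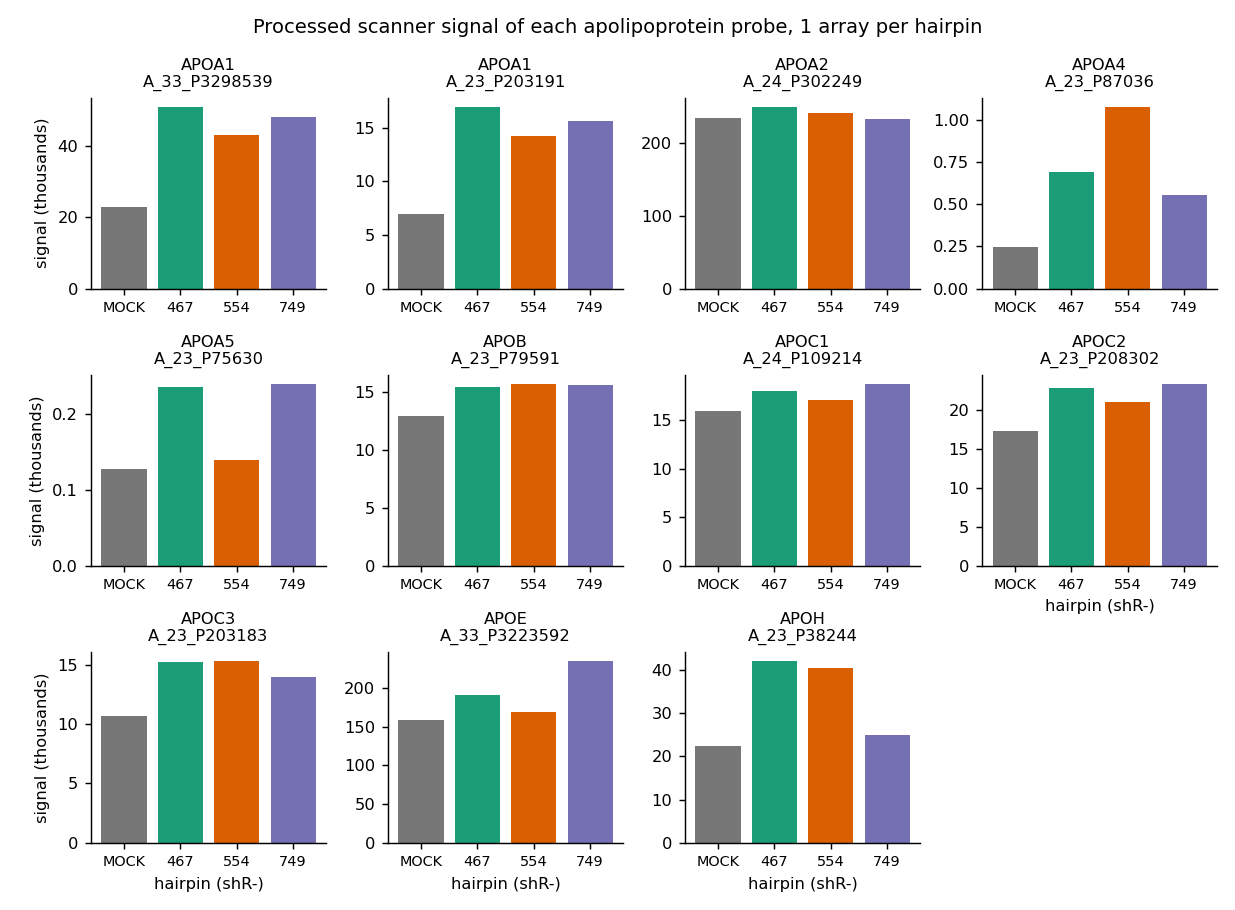
Scanner signal of each of the 11 apolipoprotein probes on the 4 arrays, 1 panel per probe and 1 bar per array (background-subtracted scanner signal on a linear axis from 0, not scaled between arrays, with a vertical axis of its own in each panel). For APOA4 and both APOA1 probes all 3 hairpin bars are far above the mock bar, while for APOA2 and APOC1 the 4 bars are nearly level.

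APOA4, a component of chylomicrons and high density lipoprotein that is made chiefly by the intestine, differed most. Its signal was 248 on the mock array, 691 under shR-467, 1080 under shR-554 and 554 under shR-749. All 3 knockdown arrays lay above the mock array, whose signal was itself 11.7 times the dimmest one there that counted as well above background. Differences are given in the order shR-467, shR-554, shR-749 throughout. After scaling each array to its 75th percentile, APOA4 stood at 319%, 350% and 221% of the mock level, and the mean log2 difference was 1.54 ± 0.35 (SD, n = 3 hairpins). By size of the mean increase it was number 22 among all genes tested and by limma's p number 36, and it did not pass the test after adjustment over all genes (limma, adjusted p = 1).

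APOA1 activates the enzyme that esterifies cholesterol on high density lipoprotein and accepts cholesterol from cells. On probe A_33_P3298539, the brighter of the pair and the one used for the gene, the signal was 22800 on the mock array, 50900 under shR-467, 43000 under shR-554 and 48000 under shR-749. The scaled level was 256%, 152% and 209% of mock, and the mean log2 difference was 1.01 ± 0.38 (SD, n = 3 hairpins). APOA1 did not pass the adjusted test either (limma, SE = 0.275, adjusted p = 1). The difference with shR-554, 0.60 on the log2 scale, was only just past the 1.5-fold line at 0.585, and with normexp background correction and quantile normalization it was just short of it. RefSeq also lists an antisense gene, APOA1-AS, whose part in the signal was not examined.

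The other APOA1 probe, A_23_P203191, reads a stretch nearer the 5′ end of the transcript and was printed in 10 spots on each array, so that the error of the array surface could be seen. Its mean signal was 6899 with shR-MOCK, with single spots from 5710 to 7390. With shR-467 the spots ran from 15000 to 17900, with shR-554 from 13200 to 15000 and with shR-749 from 15000 to 16000. Leaving out spots marked as outliers, no spot of a knockdown array overlapped any spot of the mock array. The mean log2 difference on this probe was 1.13 ± 0.38 (SD, n = 3 hairpins). Both APOA1 probes ranked the hairpins alike, shR-467 above shR-749 above shR-554, and their differences from mock were 0.12 ± 0.0154 apart on the log2 scale. The spots repeat 1 hybridisation and say nothing of the error between cultures.

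**Figure D2:**
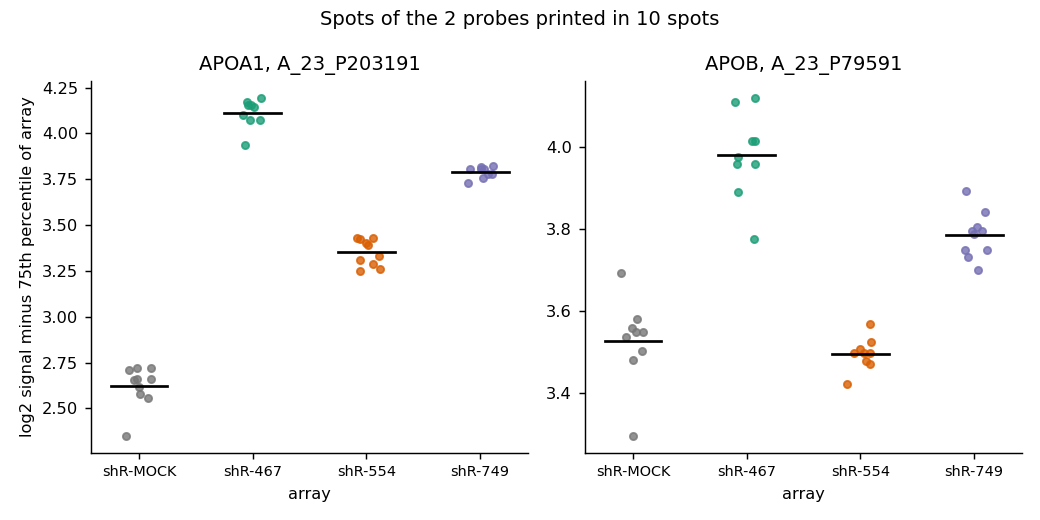
Log2 of the signal, scaled to the 75th percentile of the array, for each spot of APOA1 probe A_23_P203191 and of the APOB probe A_23_P79591, by array, without spots marked as outliers (line: mean). The spots of APOA1 on the 3 knockdown arrays lie clear of the mock spots, while those of APOB overlap them on the array of shR-554.

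Between APOA4 and APOA1 lies APOC3, which inhibits lipoprotein lipase and hepatic uptake of remnants. Its signal was 10649 on the mock array, 15248 under shR-467, 15288 under shR-554 and 13943 under shR-749. It was higher with every hairpin, by 0.71, 0.21 and 0.38 on the scaled log2 scale, but only shR-467 took it past 1.5-fold. Its mean of 0.43 ± 0.26 (SD, n = 3 hairpins) made APOC3 the gene just outside the 1.5-fold line (limma, adjusted p = 1).

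APOA5, at the end of the same row of genes, is a liver protein that promotes triglyceride lipolysis. Its probe (A_23_P75630, chromosome 11, 116660206 to 116660265 of hg19, minus strand) was dim, at a signal of 127 on the mock array, 236 under shR-467, 139 under shR-554 and 240 under shR-749. The scaled differences were 1.09, -0.18 and 0.90, so that shR-554 and the mock array lay close together and the other hairpins above both. The mean of 0.60 ± 0.69 (SD, n = 3 hairpins) was just inside the 1.5-fold line with an SD larger than itself (limma, adjusted p = 1). It came to 0.36 without shR-467, 0.45 without shR-749 and 0.99 without shR-554, and with normexp it was 0.47, under the line.

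The chromosome 11 genes did not differ from mock by the same amount. Within each array the difference of APOA1 exceeded that of APOC3 by 0.641, 0.394 and 0.685, a mean of 0.573 ± 0.157 on the log2 scale that subtracting a constant from each array cannot alter. APOA4 exceeded APOC3 by 0.959, 1.6 and 0.767. Between APOA4 and APOA5, the gene next to it, the gap was 0.586, 1.99 and 0.244, with an SD over hairpins of 0.926 that was nearly as large as its mean of 0.941. APOA1 and APOA4 were 0.318, 1.2 and 0.082 apart with APOA4 the higher, and this gap too was widest with shR-554. An exact permutation test of the single mock array against 3 hairpins cannot give a p under 0.25, so no p is given for these gaps.

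**Figure D3:**
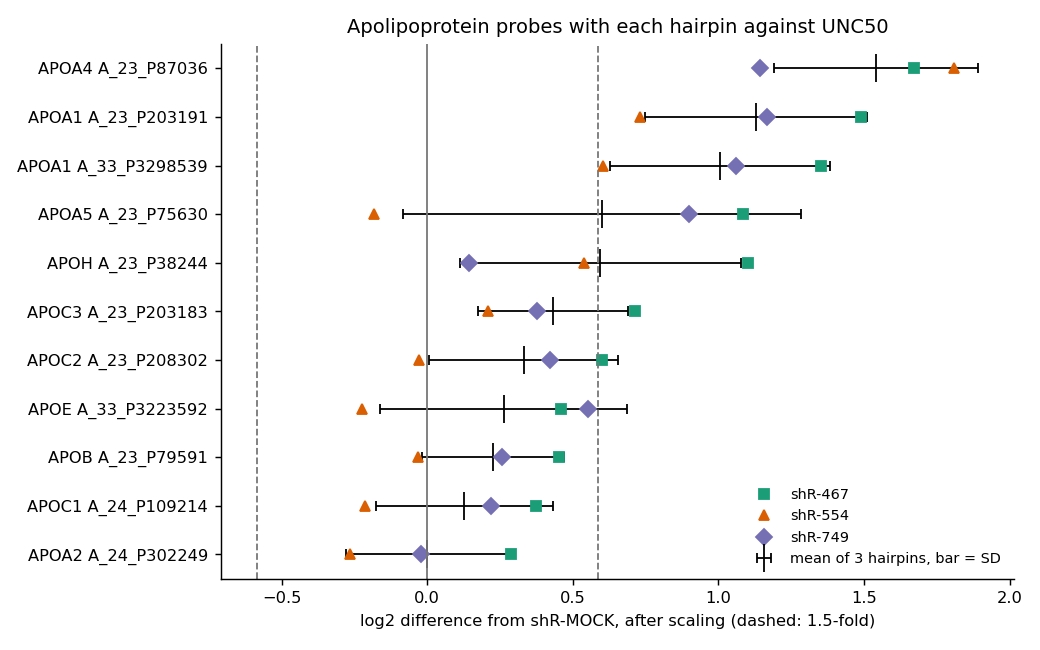
Scaled log2 difference from the mock array for each of the 11 apolipoprotein probes (symbols: shR-467, shR-554 and shR-749; tick and bar: mean and SD over the 3 hairpins; dashed lines: 1.5-fold higher and lower). APOA4 and both probes of APOA1 have every symbol past the upper line, and no probe has a symbol past the lower one.

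In the promoter table of RefSeq (assembly GRCh38.p14) 7 of the 10 genes had an entry. The 250 bases before the start of APOA4 and before the first of 2 starts listed for its neighbour APOA5 are shown, in lower case and 5′ to 3′ on the strand of the gene, because these neighbours were 1.99 apart on the log2 scale with shR-554. Capitals mark matches, on either strand, to any of 5 motifs. One was the site of the nuclear receptor HNF4, taken as CAAAGTCCA. The half-site shared by many nuclear receptors was searched as AGGTCA. For the liver factors of the FOXA family the letters were TGTTTAC. The TATA box was searched as TATAAA. The last was the CCAAT box under its own letters.
APOA4, chr11:116823305-116823554, minus strand: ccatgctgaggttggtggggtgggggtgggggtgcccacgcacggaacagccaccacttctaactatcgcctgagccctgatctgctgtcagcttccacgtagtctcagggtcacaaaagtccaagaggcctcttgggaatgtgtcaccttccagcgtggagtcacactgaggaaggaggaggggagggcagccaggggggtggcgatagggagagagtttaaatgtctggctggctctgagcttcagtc
APOA5, chr11:116792421-116792670, minus strand: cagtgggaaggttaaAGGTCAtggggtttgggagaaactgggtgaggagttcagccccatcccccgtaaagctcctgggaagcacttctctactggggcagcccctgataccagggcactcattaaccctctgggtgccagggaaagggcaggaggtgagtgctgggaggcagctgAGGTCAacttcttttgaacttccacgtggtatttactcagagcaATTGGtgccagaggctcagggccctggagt
The APOA4 window held 0 matches and this APOA5 window 3, while the window of the other APOA5 start, not shown, held 1 (AGGTCA, at 156 bases). In the window shown, AGGTCA occurred at 235 and 74 bases before the start of APOA5, and CCAAT, read on the other strand, at 30 bases. Of all 35116 promoters in that RefSeq set, 12.1% held AGGTCA and 32.0% held CCAAT, so that either is common, while 0.325% held CAAAGTCCA. The search took the letters exactly, so near matches were not counted, and 0 matches does not mean that the APOA4 window lacks sites of these factors. These letters describe the windows and were not tested for binding.

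APOA2, the other main protein of high density lipoprotein, did not follow APOA1. Its signal was 233846 on the mock array, 249550 under shR-467, 241272 under shR-554 and 232495 under shR-749, near the top of the range of each array although no spot was saturated. The scaled differences of 0.29, -0.27 and -0.02 averaged 0.000563 with an SD of 0.279 (n = 3 hairpins), and the sign of this mean turned negative with quantile normalization (-0.12) and with normexp (-0.15). Within each array APOA1 exceeded APOA2 by 1.06, 0.87 and 1.08, a mean of 1.01 ± 0.118 on the log2 scale.

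APOB had a signal of 12914 on the mock array, 15430 under shR-467, 15684 under shR-554 and 15579 under shR-749, on a probe printed in 10 spots (A_23_P79591, chromosome 2, 21224499 to 21224558 of hg19, minus strand). The single spots ran from 11000 to 14500 on the mock array and from 13400 to 17000 on that of shR-467, so that before scaling the spots of these arrays overlapped. The spots of shR-554 (14900 to 16500) and of shR-749 (14700 to 16800) all lay above those of the mock array before scaling. After scaling, the differences were 0.45, -0.03 and 0.26, and the mean was 0.23 ± 0.24 (limma, adjusted p = 1). APOA1 exceeded APOB by 0.902, 0.635 and 0.803 within the arrays.

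On chromosome 19 the probes of APOE (A_33_P3223592), APOC1 (A_24_P109214) and APOC2 (A_23_P208302) lie on the plus strand of hg19, at 45412590 to 45412649, 45422436 to 45422495 and 45452640 to 45452699. APOE, the ligand by which remnants bind the low density lipoprotein receptor, had a signal of 158493 on the mock array, 190468 under shR-467, 168499 under shR-554 and 234495 under shR-749. Its scaled differences were 0.46, -0.22 and 0.55 with a mean of 0.26 ± 0.42. APOC1, an inhibitor of lipoprotein uptake and of cholesteryl ester transfer, had a signal of 15909 on the mock array, 17999 under shR-467, 17038 under shR-554 and 18699 under shR-749, and a mean scaled difference of 0.13 ± 0.30. Neither gene was separated from the mock array by every hairpin after scaling.

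APOC2, the activator of lipoprotein lipase, had a signal of 17299 on the mock array, 22886 under shR-467, 21047 under shR-554 and 23392 under shR-749, with a mean scaled difference of 0.33 ± 0.32. It passed 1.5-fold with shR-467 alone, at 0.60, and was under the line there with median scaling (0.55), quantile normalization (0.55), normexp (0.58) and no scaling (0.40). APOC1 and APOC2 kept almost the same gap on each array, 0.226, 0.184 and 0.202 on the log2 scale with APOC2 the higher, with an SD of 0.0209. With no scaling the SD was 0.0675 for APOC1 and 0.0804 for APOC2. The gap of APOE over APOC1 was less steady, at 0.087, -0.0106 and 0.332. RefSeq lists a read-through transcript of APOC4 and APOC2, and whether the APOC2 probe also reads it was not examined.

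APOH, or beta-2-glycoprotein I, binds phospholipids and lies apart from the other genes on chromosome 17 (probe A_23_P38244, 64208205 to 64208264 of hg19, minus strand). Its signal was 22450 on the mock array, 42088 under shR-467, 40449 under shR-554 and 25048 under shR-749. It was past 1.5-fold with shR-467 alone, at 1.1, while shR-554 gave 0.54 and shR-749 0.15. With shR-554 it too was past the line with normexp (0.66) and with no scaling (0.85). The mean of 0.60 ± 0.48 (limma, adjusted p = 1) lay just inside the line and came to 0.34 without shR-467.

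Set against all genes, 4 of the 10 apolipoprotein genes were at least 1.5-fold higher on average where 2.28% of the 24918 genes tested were, and 0 were lower where 7.5% were. With every hairpin past the line the count was 2 of 10 against 0.534% of all genes, and 0 lower against 1.2%. APOA1, APOA4, APOC3 and APOH were higher by any amount with every hairpin, 4 of 10 against 17.6%, and 0 were lower with every hairpin against 20.5%. Every member was well above background on each array, and among all genes of which that held the shares were 2.34% higher and 2.87% lower for the mean, 0.57% higher and 0.471% lower for every hairpin past 1.5-fold, and 20.3% higher for every hairpin by any amount. The median mean difference of the 10 genes was 0.38 on the log2 scale and that of all genes was -0.026. The members' median came to 0.245 without shR-467 and to 0.528 without shR-554. Without shR-467 the count of 4 came to 2, namely APOA1 and APOA4.

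**Figure D4:**
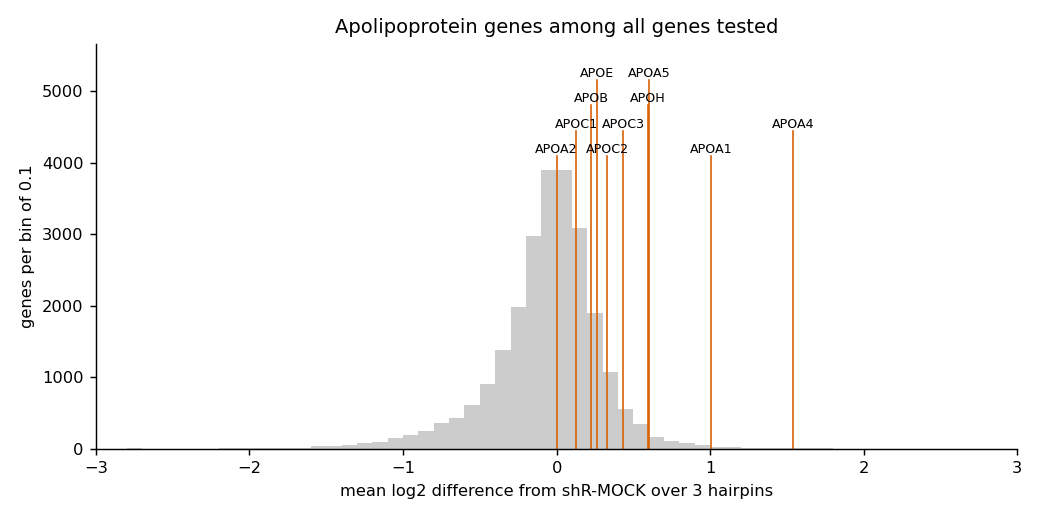
Distribution of the mean scaled log2 difference from mock over the 24918 genes tested (grey histogram, genes per bin of 0.1), with the 10 apolipoprotein genes marked by vertical lines at their own means, the height of a line having no meaning. APOA2 stands at the centre of the distribution, and APOA1 and APOA4 stand in its right tail.

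The limma test called 0 genes of 24918 (0%) at an adjusted p under 0.05, and so 0 of the 10. At an unadjusted p under 0.05 it gave 377 genes, 1.51% of those tested, of which the higher ones made up 0.799% of those tested, and 2 of the 10, APOA4 and APOA1, both higher. Their unadjusted limma p-values were 0.0019 and 0.00828, and the adjusted p was 1 for all 10 genes. The methods' t-test gave 642 genes unadjusted and 0 after Benjamini-Hochberg adjustment. It gave APOA4 an unadjusted value of 0.0628 and APOA1 one of 0.148. In simulated arrays with the spread of these hairpins limma called 0 of 200 genes that had been changed 4-fold, so the absence of calls does not separate changed from unchanged genes in this design.

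The hairpins were not alike for these genes. With shR-467, 6 of 10 were at least 1.5-fold higher (7.19% of all genes), with shR-749 it was 3 (5.37%) and with shR-554 it was 2 (4.39%). The count of genes lower by that much was 0 with each hairpin, beside 6.74%, 10.1% and 15.6% of all genes for shR-467, shR-749 and shR-554. With no scaling between arrays these counts became 4 for shR-467 and 3 each for shR-749 and shR-554. The shR-554 value was the lowest of the 3 for 8 of the 10 genes and the shR-467 value the highest for 8, but with no scaling these were 5 and 3. The members' median was 0.656 under shR-467, where that of all genes was 0.0327. Under shR-554 it was -0.03 beside -0.0379, and under shR-749 it was 0.399 beside -0.054. These comparisons share the mock array and are given side by side.

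Scaling added 0.196 to every log2 difference of shR-467, and the low values of shR-554 moved with the scaling of that array. Its 75th percentile was 1390 against 1120 on the mock array, which takes 0.312 off every log2 difference of shR-554. Before scaling, 10 of the 10 genes were higher with shR-554 than with shR-MOCK, as were 73.5% of all genes, whose median was 0.274. After scaling 4 of the 10 and 45.4% of all genes were higher. APOA2, APOA5, APOC1 and APOE were lower with shR-554 under 7 of 8 ways of computing the values and higher only with no scaling between arrays, by 0.0451 to 0.128. APOB was higher under 3 of the 8 and APOC2 under 5. APOA1, APOA4, APOC3 and APOH were higher with shR-554 under all 8, and the order of genes within an array is the same with or without such a constant. The 8 ways were not independent. For shR-554, raising low signals to a floor altered no member, and keeping marked spots altered only APOB. The authors' values nearly repeat quantile normalization.

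The remaining genes of the family that were tested stayed under 1.5-fold on average, although APOC4 stood above the member APOC3 (0.43). Of 14 other apolipoprotein genes on the array 9 were tested and 0 passed 1.5-fold on average in either direction. APOC4, a neighbour of APOC2, was highest at 0.50 ± 0.0787, with 0.58, 0.51 and 0.42 for the 3 hairpins, followed by APOM, a sphingosine-1-phosphate carrier, at 0.23. The lowest were APOL6 at -0.38 and APOOL, a mitochondrial protein, at -0.20.

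Genes that load lipid onto APOB and carry the particle out of the cell gave 1 gene higher and 0 lower among 16 tested. That gene was TM6SF2, a protein of the secretory pathway needed for lipidation, at 0.60 on average, but its hairpins ran from -0.29 to 1.47. DGAT1, which makes triglyceride, was next at 0.36, and SAR1A, a GTPase of transport vesicles, and SORT1, a sorting receptor, were lowest at -0.25 and -0.16. MTTP, which transfers lipid to APOB, stood at 0.28. Enzymes and factors that remodel lipoproteins in plasma gave 1 higher and 0 lower among 11 tested, and LPL, LIPG and CETP did not pass the filter on dim probes. LIPC, hepatic lipase, was at 0.58, just under the line. PON1, an esterase of high density lipoprotein, and ANGPTL8 were lowest at -0.31 and -0.23, but ANGPTL8 (LOC55908 on the array) gave 0.92, -0.34 and -1.27 with the 3 hairpins.

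Lipoprotein receptors and their regulators gave 1 gene higher and 0 lower among 12 tested. MYLIP, a ubiquitin ligase for the low density lipoprotein receptor, stood at 0.41, and LRP8, a receptor of the same family, was lowest at -0.24. Among 31 transcription factors and cofactors known to act on apolipoprotein genes, 1 was higher and 0 were lower on average. It was CREB3L3, a liver transcription factor that acts on APOA4, APOA5 and APOC2 among others, at 0.76 ± 0.212 (0.70, 0.58 and 0.99; limma, adjusted p = 1), and with shR-554 it lay just under 1.5-fold. FOXA3 was next at 0.46. Among the regulators well above background on every array, which leaves out RORA (-0.21), FOXA1 and THRB were lowest at -0.42 and -0.19. HNF4A, the main nuclear receptor of hepatocyte genes, was at 0.20. No gene of these 5 lists passed 1.5-fold with every hairpin, where 0.534% of all genes were higher and 1.2% lower. Beside the counts on average, the shares of all genes were 2.28% higher and 7.5% lower. The medians of the lists were -0.0731, 0.163, -0.12, -0.000445 and 0.00443 in the order given, beside -0.026 for all genes.

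**Figure D5:**
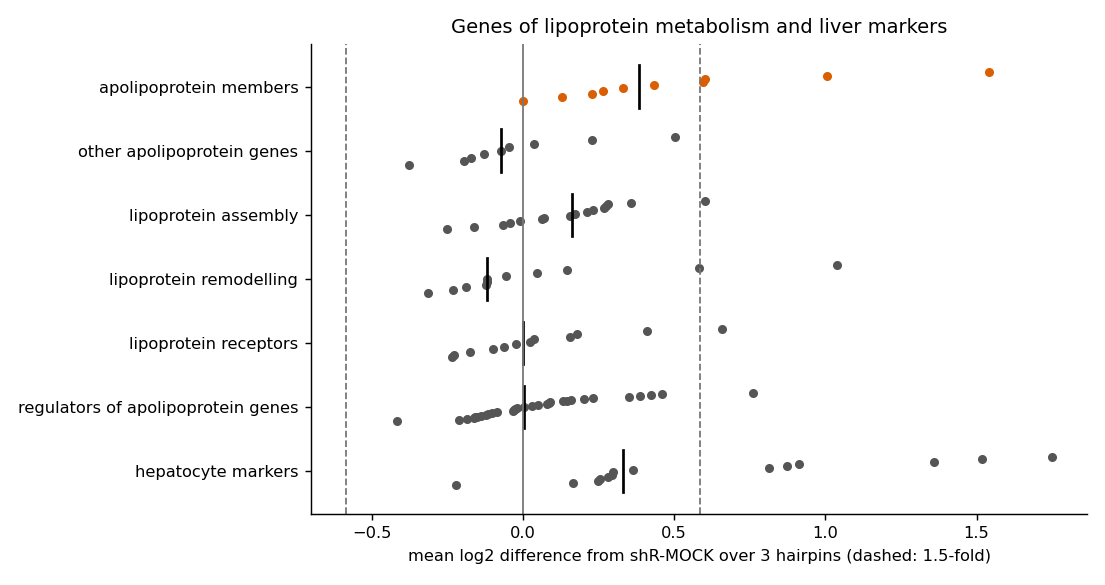
Mean scaled log2 difference from mock of each tested gene in the apolipoprotein list, the 5 lists of genes that act with apolipoproteins and the hepatocyte markers (1 point per gene, mean of 3 hairpins; short line: list median; dashed lines: 1.5-fold). The medians of the apolipoproteins (0.38) and of the hepatocyte markers (0.33) lie above those of the other lists. Each point is a mean and does not show which hairpin was highest.

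Of the hepatocyte markers all 14 were tested, and 6 were at least 1.5-fold higher on average and 0 lower. Among all genes tested 2.28% were higher and 7.5% lower, and among those well above background on every array 2.34% and 2.87%. The markers' median was 0.33. Their summed signal, scaled to the 75th percentile of the mock array, was 700440 on that array and between 852070 and 969550 on the knockdown arrays. FGB (1.75 ± 1.02), FGA (1.52 ± 0.856) and TTR (0.81 ± 0.292), all secreted plasma proteins, were past 1.5-fold with every hairpin. FGG, AFP and HP passed on average, HP through shR-467 only (2.55, -0.19 and 0.26). The means of the list ran from -0.223 (VTN) to 1.75. After scaling, FGB, FGA, FGG, AFP, TTR and AMBP were highest with shR-749. HP, AHSG, F2, RBP4, ALB, TF, SERPINA1 and VTN were highest with shR-467, as were 8 of the 10 apolipoprotein genes. ALB, the defining hepatocyte product, was higher by 0.25 ± 0.0646. On the mock array ALB read 244338 and AHSG 147499, beside 1414 for FGB and 502 for FGA. The summed signal therefore says little of the dimmer markers. The part of the marker differences in the apolipoprotein values was not tested.

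Enterocytes also make APOA4, APOA1 and APOB, and 4 of 5 enterocyte markers were tested. Their summed signal, scaled in the same way, was 35900 with shR-MOCK and 29488 to 34254 with the hairpins. VIL1 carried most of this sum, with 31447 on the mock array beside 357 for SI, so the sum says little of the other markers. SI was higher with every hairpin, by 0.77, 1.30 and 2.12, while CDX2 was at -0.46, VIL1 at -0.18 and CDX1 at 0.38. FABP2 was not well above background under the filter used and was not tested. The scaled sum of immune markers was 5186.4 with shR-MOCK and 4929.1 to 6695.1 with the hairpins (4 of 4 tested), that of endothelial markers was 251.87 and 276.27 to 393.33 (3 of 3), that of stellate or fibroblast markers was 63.993 and 23.297 to 128.73 (2 of 5, without COL1A1, ACTA2 and PDGFRB) and that of cholangiocyte markers was 84218 and 67330 to 85037 (4 of 4). Neither of the 2 stellate or fibroblast markers tested, COL1A2 and DCN, was well above background on all 4 arrays. Before scaling they read 15.9 and 13.0 with shR-554, where the dimmest single spot that counted as well above background read 28.3. The spread of their sum therefore cannot be told from background. CD68 (3309) and CD14 (1750) carried most of the immune sum on the mock array. EPCAM (52310) and KRT19 (29250) carried most of the cholangiocyte sum there. Of the immune markers CD3E was not well above background on all 4 arrays. The endothelial marker VWF read 27.2 with shR-554 before scaling. The part of any of these marker sums in the apolipoprotein values was not tested.

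The genes whose 3 differences lay nearest to those of APOA4 were SOAT1, C12orf75 and WNT11. Nearness was the Euclidean distance over the 3 hairpins among the 13789 RefSeq-named genes that were well above background on each of the 4 arrays, and 17 of them lay within a distance of 1. SOAT1, which esterifies cholesterol in the endoplasmic reticulum, was at a distance of 0.4 with differences of 1.43, 1.49 and 1.17. C12orf75 was at 0.467 with 1.66, 2.01 and 1.57, and WNT11, a secreted signalling protein, was at 0.535 with 1.57, 1.81 and 1.67.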

How the data were processed

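Cy3-labelled RNA of the 4 samples was hybridised to 1-colour Agilent arrays. Per the submitters' processing notes, the authors used Agilent Feature Extraction 10.7.1.1, whose deposited output gives each spot's intensity with background subtracted. The authors also deposited a table of log2 values, which set against the scanner output matched quantile-normalized spot means (median absolute difference 0.001) and served as an alternative. Here intensities were turned to log2 and centred on the 75th percentile of their array, without control spots and marked outlier spots (254 to 466 an array). Spots were averaged within a probe. The filter on dim probes asked for a signal well above background either with shR-MOCK or with each of the 3 hairpins. A gene took its kept probe with the highest mean, which left 24918 genes, 15280 with a RefSeq name. Names and hg19 positions are those of the array.

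The rule of an average 1.5-fold change follows the study's methods. limma 3.58.1 in R 4.3.3 was fitted across all genes with a mean-variance trend and Benjamini-Hochberg adjustment (2 residual degrees of freedom, prior 4.93), with the mock array assumed to vary like the hairpins. The methods' t-test was run as an alternative. Simulated data served as a test of the scripts, and there all 200 genes changed 4-fold among 24918 passed 1.5-fold. The number of arrays limits the precision.

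The genes and lists were chosen with earlier results of these data known. Named were all 10 genes, UNC50, list members past 1.5-fold with every hairpin and otherwise the 2 highest and 2 lowest of a list among genes well above background on every array, defining markers, and the 3 genes nearest to the most changed member. MTTP and HNF4A were named after their values were seen. Some list members that this rule names are counted but not reported here by name. Promoters are from RefSeq, GRCh38.p14. Alternatives tried were median scaling, quantile normalization with and without normexp (offset 50), the authors' values, a floor on low signals, stricter and absent filters, marked spots kept in, averaged probes, a 2-fold threshold, limma without trend and each hairpin left out. A setting with no scaling between arrays was chosen after seeing the data.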

Additional observations from a re-analysis of the deposited data

How the results depend on the processing

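Of 303 values recomputed under the alternatives, 284 shifted by less than 1 SD over the hairpins (counts: by at most 1.5 times), and 19 moved further. The cause of the shifts was not tested. Part of the 284 was fixed in advance. All 11 member probes were well above background on every array, so the floor and the other filters could not move a member's mean. The authors' values nearly repeat quantile normalization. The count of 284 is therefore not a measure of robustness. No value past 1.5-fold changed sign, but the mean of APOA2, at 0.000563, became -0.12 with quantile normalization and with the authors' values, -0.15 with normexp and -0.14 without shR-467. The members past 1.5-fold with every hairpin fell from 2 to 1 under normexp and to 1 at a 2-fold threshold. The 4 members past it on average came to 2 at 2-fold and to 3 under normexp (without APOA5). With a hairpin left out they came to between 2 and 4. In the comparison of shR-554 with mock, the 2 members past 1.5-fold came to 1 at 2-fold. Assembly genes went from 1 to 0 under normexp, at 2-fold and, at the lowest, with a hairpin left out (0 to 1). Remodelling genes went from 1 to 0 under normexp, to 2 with no scaling and to between 1 and 3 with a hairpin left out. Receptors went from 1 to 2 with no filter, to 0 at 2-fold and to between 0 and 2 with a hairpin left out. Other apolipoprotein genes went from 0 to 2 with no filter, regulators from 1 to 0 at 2-fold and hepatocyte markers from 6 to 3 at 2-fold. Over all genes, the 568 higher and 1870 lower (76.7% lower) became 665 and 1541 with quantile normalization (69.85%), 256 and 282 with normexp (52.42%), 605 and 926 with the floor (60.48%), 498 and 611 under the stricter filter on dim probes (55.09%), 1997 and 3368 with no filter (62.78%), 110 and 556 at 2-fold, and 901 and 1462 without shR-554 (61.87%). limma called 4 genes with normexp, 1 without shR-554 and 36 with no scaling, and in none of these a member. No paired analysis was possible because there was 1 mock array. A block for slide or scan could not be fitted because each was common to the 4 arrays. In the comparison of shR-467 with mock, the 6 members past 1.5-fold came to 5 with median scaling, quantile normalization, normexp and the authors' values. With no scaling they came to 4. With 1 mock array its own error is not known.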
